A study of Mus musculus with 8 samples.

Results

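A set of 9 genes was studied that are used to recognise Kupffer cells, the resident macrophages of the liver: Clec4f, Vsig4, Timd4, Cd5l, Marco, Id3, Nr1h3, Spic and Folr2. They were taken by symbol from a list of known genes. All 9 were found among the 32285 genes of the count tables, and all 9 passed the filter on low counts in the comparisons between groups. Single-nucleus RNA sequencing counts were available for 8 livers, each a library of its own. The animals were males of the DIAMOND line, which derives from crossing 129A1/SvIm with C57BL/6J. Droplet libraries were made with the 3' version 3.1 chemistry, in which each captured RNA molecule carries a unique molecular identifier (UMI).

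All mice first received a Western diet, high in fat and given with sugar water, from 2 months of age. Of these, 3 (WD mice 1 to 3) stayed on it for 48 weeks and developed hepatocellular carcinoma. The other 5 were returned to standard chow after 36 weeks. Among the latter, 2 had hepatocellular carcinoma at the end (RD tumour mice 1 and 2) and 3 had none that was detectable (RD no tumour mice 1 to 3). No group was kept on chow throughout. The labels also place the end of the study at 48 weeks of age, which cannot hold together with 48 weeks of diet begun at 2 months. Snap-frozen liver was used in every case, and the labels do not say whether the piece taken from a tumour-bearing liver held tumour.

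Kupffer cells settle in the liver before birth and renew themselves there. When they are lost, monocytes from the blood enter the sinusoid and acquire most of the same genes, guided by signals from endothelial, stellate and liver parenchymal cells. Clec4f, a C-type lectin, and Vsig4, a complement receptor, are acquired by both kinds of cell, while Timd4, a receptor for phosphatidylserine on dying cells, is acquired late and is used to tell long-resident from recently recruited cells. Cd5l is a secreted scavenger-receptor-family protein, and Marco is a scavenger receptor for bacteria and particles. Nr1h3 encodes the nuclear receptor LXR alpha, Id3 an inhibitor of helix-loop-helix factors needed for Kupffer cell development, Spic a transcription factor of iron-handling macrophages, and Folr2 a folate receptor of resident macrophages.

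All 9 genes are protein coding and lie on 9 different chromosomes of the GRCm38 (mm10) assembly. Clec4f spans chr6:83644542-83656187 on the minus strand, Timd4 spans chr11:46810800-46844332 on the plus strand, and Marco spans chr1:120474538-120505024 on the minus strand. Nr1h3 overlaps Gm13783 on the same strand and Folr2 overlaps Gm10602 and Gm45319 on the opposite strand. Whether these overlaps changed the counts was not tested. The promoters of Clec4f, Timd4 and Marco are shown because the level of Timd4 followed that of Clec4f across the libraries and cell classes, whereas that of Marco did not. Each runs 5' to 3' on the gene's strand from 250 bases before to 50 bases after the RefSeq start (GRCm38.p6), and capitals mark a motif match.
Clec4f, chr6:83656067-83656366, minus strand: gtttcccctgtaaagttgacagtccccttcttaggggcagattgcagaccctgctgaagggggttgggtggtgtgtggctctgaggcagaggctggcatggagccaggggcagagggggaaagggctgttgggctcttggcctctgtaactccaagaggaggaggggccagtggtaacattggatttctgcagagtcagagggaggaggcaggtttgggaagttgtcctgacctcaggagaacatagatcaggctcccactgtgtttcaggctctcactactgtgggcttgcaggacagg
Timd4, chr11:46810549-46810848, plus strand: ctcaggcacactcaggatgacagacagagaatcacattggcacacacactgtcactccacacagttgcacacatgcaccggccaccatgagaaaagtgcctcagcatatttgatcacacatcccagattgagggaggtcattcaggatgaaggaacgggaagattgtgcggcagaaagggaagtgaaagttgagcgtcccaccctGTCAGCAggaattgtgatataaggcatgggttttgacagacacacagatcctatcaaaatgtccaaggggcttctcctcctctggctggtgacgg
Marco, chr1:120504975-120505274, minus strand: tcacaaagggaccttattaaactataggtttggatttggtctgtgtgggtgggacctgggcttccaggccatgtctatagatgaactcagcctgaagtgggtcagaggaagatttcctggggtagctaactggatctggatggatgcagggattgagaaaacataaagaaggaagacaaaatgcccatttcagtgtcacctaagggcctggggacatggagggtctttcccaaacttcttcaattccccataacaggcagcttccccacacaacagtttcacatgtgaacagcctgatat
The motifs searched were these, on both strands: the PU.1 core GAGGAAGT, the RBPJ motif GTGGGAA, the MAF half-site TGCTGAC and the LXR direct repeat (2 AGGTCA half-sites 4 bases apart). Among 32851 promoters of this length they occurred in 3.20%, 6.38%, 4.67% and 0.0152% respectively. Of the 11 promoter entries of the members, 1 held a match: the MAF half-site of Timd4, on the reverse strand and starting at base 206 of the window. No match says only that these letters are not in these windows.

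Depth ran from 17948627 to 34363108 UMIs per library, over 79446 nuclei with at least 300 detected genes of 80575 barcodes. The median was 1120 to 2656 UMIs and the median mitochondrial share 1.30% to 7.91%. Pairs of libraries shared between 8 and 65 barcodes, at most 0.676% of the smaller library. RD tumour mouse 1 stood apart: it had exactly 20000 barcodes, and 91.8% of its nuclei held UMIs of at least 3 of the 17 measured genes of a general macrophage marker list, against 8.30% to 15.0% in 5 other mice. The share was also high in WD mouse 2 (59.7%) and RD no tumour mouse 1 (37.1%). The summed level of this marker list over the whole library was 6667 counts per 1000000 UMIs of the library (CPM) in RD tumour mouse 1, 2464 in WD mouse 2 and 1853 in RD no tumour mouse 1, against 419 to 791 CPM in the other mice. Main values without them are given where the call, the direction or the size changed.

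Clec4f, the lectin that marks Kupffer cells most selectively in the mouse, was present in every liver. In the whole libraries its level was 87.5, 48.4 and 96.7 CPM in WD mice 1 to 3, 32.1 and 106.7 CPM in RD tumour mice 1 and 2, and 93.4, 150.7 and 76.6 CPM in RD no tumour mice 1 to 3. The 3 groups overlapped, and RD tumour mouse 1 was lowest. The group means were 77.6 ± 25.6 CPM (SD, n = 3), 69.4 ± 52.8 CPM (SD, n = 2) and 106.9 ± 38.9 CPM (SD, n = 3). In bulk values of this kind, fewer Kupffer cells and less RNA per cell cannot be told apart. WD minus RD no tumour was -0.50 ± 0.49 (log2 fold change ± SE, edgeR quasi-likelihood test, adjusted p = 1) and RD tumour minus RD no tumour was -0.72 ± 0.56 (adjusted p = 0.635). The first ran from -0.68 to -0.15 when single mice were left out, at -0.15 without RD no tumour mouse 2 and -0.23 without WD mouse 2. The second was -0.12 without RD tumour mouse 1, -0.35 without RD no tumour mouse 2 and -1.76 without RD tumour mouse 2 (edgeR adjusted p = 1, 0.842 and 0.0703). The mice are the replicates, and p-values here measure the spread between them.

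Vsig4 was measured at 59.7, 104.5 and 51.4 CPM in the WD mice, 47.0 and 57.9 CPM in the RD tumour mice, and 109.8, 84.4 and 48.3 CPM in the RD no tumour mice. Its 2 highest livers were WD mouse 2 and RD no tumour mouse 1, which were among the 3 with macrophage RNA in many nuclei. Cd5l had the same 2 highest livers, at 185.2 and 209.8 CPM, with the other 6 between 66.3 and 115.5 CPM. For Timd4, the 3 WD mice lay close together at 23.8 to 24.8 CPM, while the other groups spread widely: 7.36 and 40.5 CPM in the RD tumour mice, and 40.5, 33.9 and 13.5 CPM in the RD no tumour mice. WD minus RD no tumour was -0.30 ± 0.58 for Timd4 (log2, edgeR adjusted p = 1). It was -0.046 without RD no tumour mouse 1, -0.15 without mouse 2 and -0.63 without mouse 3 of that group.

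Marco spread widely between mice of the same group. WD mice 1 and 3 had 9 and 17 Marco UMIs in their whole libraries, or 0.50 and 0.69 CPM, whereas WD mouse 2 had 1856 UMIs, or 82.5 CPM. RD tumour mice 1 and 2 had 18.6 and 72.3 CPM, and RD no tumour mice 1 to 3 had 70.4, 23.3 and 12.7 CPM. Spic, the iron-linked factor, gave a similar order in part: 3.96, 48.3 and 6.99 CPM in the WD mice, 19.8 and 25.0 CPM in the RD tumour mice, and 41.3, 11.3 and 8.94 CPM in the RD no tumour mice. WD mice 1 and 3 were the lowest 2 of the 8 livers for both genes. The fold change of Marco was -0.40 ± 1.62 for WD minus RD no tumour and -0.71 ± 1.78 for WD minus RD tumour (log2, edgeR adjusted p = 1 and 0.879). Leaving out WD mouse 1, WD mouse 3 or RD no tumour mouse 1 turned the first of these to 0.15, 0.15 and 0.49, and leaving out RD tumour mouse 2 turned the second to 0.51. Without WD mouse 2 they were -5.84 and -6.15 (adjusted p = 1 and 0.540).

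Id3 was the only member whose groups did not overlap. Its level was 40.2, 46.3 and 47.6 CPM in the WD mice, 170.1 and 203.3 CPM in the RD tumour mice, and 78.9, 71.8 and 48.2 CPM in the RD no tumour mice. Both RD tumour livers were above all 6 others, as were 5.87% of all 19087 genes tested, and every WD liver was below every RD no tumour liver. Between 10.7% and 21.4% of all genes did not overlap in the 3 pairs of groups, so 1 member of 9 is near that background in each. RD tumour minus RD no tumour was 1.44 ± 0.24 (log2, edgeR adjusted p = 0.612), and WD minus RD tumour was -2.04 ± 0.25 (edgeR adjusted p = 0.590). The latter had the smallest p-value of all genes in that comparison, and neither passed the adjustment over all genes. WD minus RD no tumour was -0.60 ± 0.22 (edgeR adjusted p = 1). With DESeq2 the first 2 passed, at 1.47 (adjusted p = 6.5e-05) and -2.08 (adjusted p = 3.4e-11), where DESeq2 called 0.351% and 0.571% of genes.

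In RD tumour mouse 2 the high Id3 did not lie in macrophage nuclei alone. Nuclei were sorted here into 6 classes (macrophage, endothelial, stellate or fibroblast, T and natural killer, B and cholangiocyte). The rule was an excess of marker UMIs over the library's average rate, described below for macrophages. Outside all classes, Id3 was 165 and 208.7 CPM in RD tumour mice 1 and 2, against 30.0 to 53.6 CPM in the other 6 mice. In RD tumour mouse 1 these nuclei were 97.9% of all, and its macrophage nuclei were not separated from them. Endothelial nuclei of RD tumour mouse 2 held 181 CPM and its T and natural killer cell nuclei 247 CPM, against 68.7 to 150 CPM and 34.3 to 62.6 CPM in these classes of the 6 mice of the other groups.

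Nr1h3, the LXR gene, ranged from 55.3 to 104.8 CPM over the 8 livers. Folr2 was measured at 4.91 to 11.8 CPM, with 7 of the 8 livers between 8.96 and 11.8 CPM and RD no tumour mouse 3 below them. No member, and no gene of the 19087, passed an adjusted p of 0.05 in the 3 comparisons of whole libraries with edgeR (0% called in each). Without adjustment 1279, 524 and 1443 genes had a p under 0.05 for RD tumour minus RD no tumour, WD minus RD no tumour and WD minus RD tumour, or 6.70%, 2.75% and 7.56%. One member, Id3, was among them each time. DESeq2 called 67, 36 and 109 genes.

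**Figure D1:**
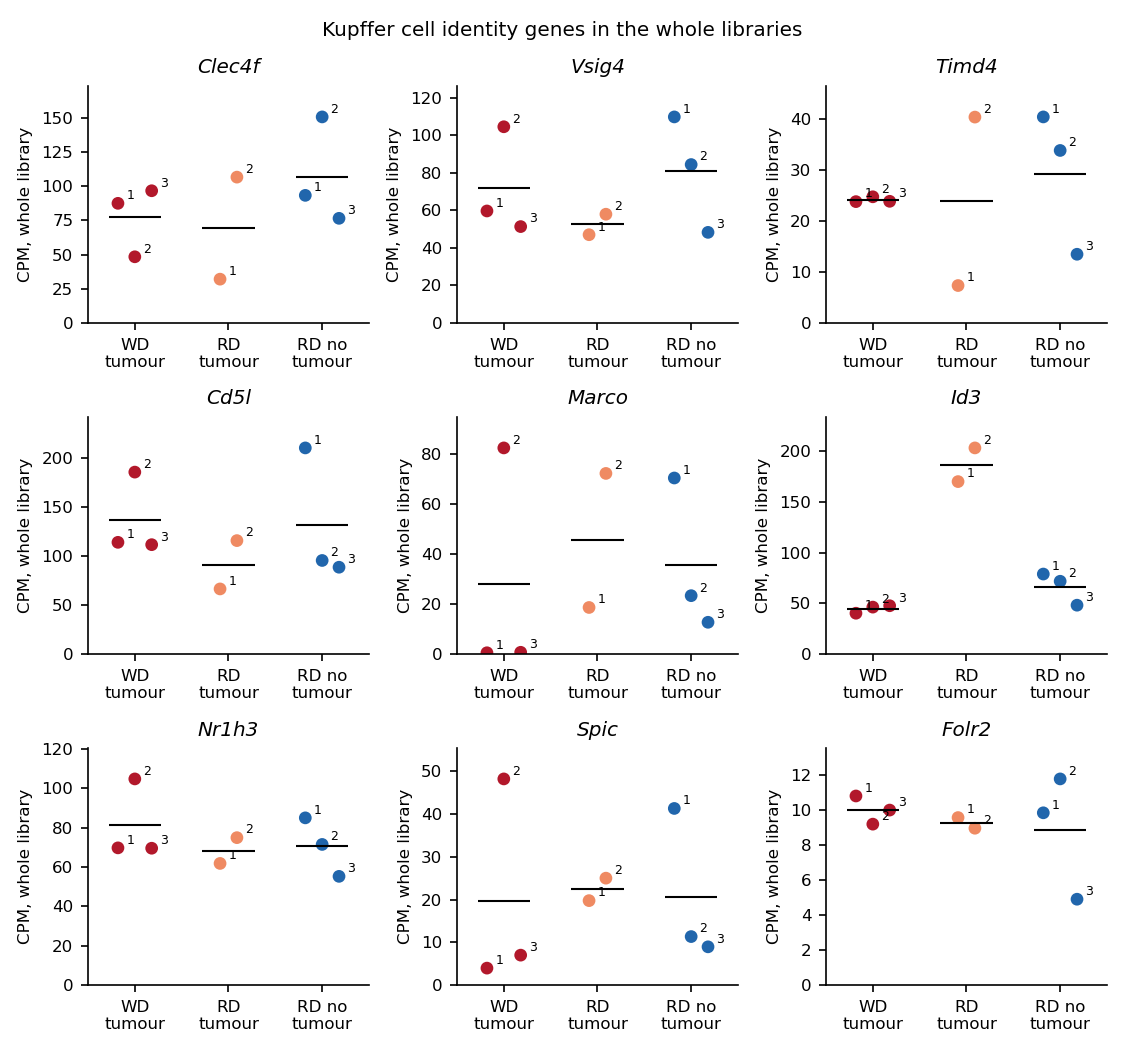
Level of each of the 9 genes in the whole library (CPM, linear axes from 0), 1 point per mouse labelled with its replicate number, with the group mean as a line. Id3 separates the RD tumour livers (170.1 and 203.3 CPM) from the 6 others, while Marco spans 0.50 to 82.5 CPM within the WD group.

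To look at the members within macrophages, nuclei were first taken as macrophage-marker nuclei when at least 3 of the 17 marker genes had a UMI and no other class list had more. None of the 9 members is on that list. Because this class took in most nuclei of RD tumour mouse 1 and WD mouse 2, a second class was added after the data had been seen. It holds nuclei with more macrophage-list UMIs than their own library's average rate gives (Poisson tail under 0.0001), and is called macrophage-excess below. It numbered 224, 423 and 431 nuclei in the WD mice, 176 and 317 in the RD tumour mice, and 788, 512 and 476 in the RD no tumour mice. As shares of all nuclei these were 3.47%, 5.98% and 4.86%, then 0.880% and 3.06%, then 7.67%, 8.47% and 4.60%.

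In 7 of the 8 livers the macrophage-excess nuclei carried Clec4f, Vsig4, Timd4 and Cd5l at more than 2 times the level of the remaining nuclei. Clec4f reached 890, 97.9 and 1046 CPM in the WD mice, 649 CPM in RD tumour mouse 2, and 303, 1220 and 714 CPM in the RD no tumour mice, against 44.7 to 83.5 CPM in the nuclei of no class of the same livers. In RD tumour mouse 1 the class was not separated: Clec4f was 48.7 CPM there and 31.7 CPM in the rest, and Spic was 19.1 and 19.8 CPM. The ratio of macrophage-excess to remaining nuclei for Clec4f was between 15.9 and 23.2 in 4 livers (WD mice 1 and 3, RD no tumour mice 2 and 3). It was 7.78 in RD tumour mouse 2, 4.14 in RD no tumour mouse 1 and 2.19 in WD mouse 2. The last 2 are the livers with macrophage RNA in many nuclei. Summed marker lists of other cells in the macrophage-excess nuclei of the 8 livers were 758 to 1479 CPM for 18 endothelial genes, 32.3 to 91.8 CPM for T and natural killer cell genes, and 17609 to 34804 CPM for 10 hepatocyte genes, against 4147 to 14546 CPM for the macrophage list. The B cell list gave 301 to 846 CPM there, against 217 to 423 CPM in the whole libraries. The stellate or fibroblast list gave 241 to 839 CPM. The hepatocyte and macrophage lists were both highest in RD tumour mouse 1, and the part of such RNA in the values above was not tested.

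Vsig4 and Cd5l were more even across the 7 livers than Clec4f. Vsig4 lay between 357 and 724 CPM and Cd5l between 520 and 1078 CPM. Nr1h3 was 180 to 295 CPM, about as level as in the whole libraries. The group means of Vsig4 were 513 ± 136 CPM in the WD mice and 534 ± 173 CPM in the RD no tumour mice (SD, n = 3 each).

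Marco kept its split among macrophage-excess nuclei. It had 2 and 9 UMIs in those of WD mice 1 and 3 (2.62 and 7.76 CPM), but 235 UMIs, or 119.9 CPM, in those of WD mouse 2. The RD no tumour mice had 160, 127 and 113 CPM and RD tumour mouse 2 had 424 CPM. So in the livers of WD mice 1 and 3 Clec4f was high while Marco was almost undetected, and in WD mouse 2 Clec4f was the lowest of the 7 livers while Marco was in the range of the RD no tumour mice. In WD mouse 2 the nuclei outside all classes also held Marco at 78.9 CPM, and 12.7% of its Marco UMIs lay in the macrophage-excess nuclei. Spic was 44.6, 181 and 92.3 CPM in the WD mice, 188 CPM in RD tumour mouse 2, and 177, 104 and 103 CPM in the RD no tumour mice. Without RD tumour mouse 1, Marco gave -3.13 ± 1.30 for WD minus RD tumour (log2, edgeR adjusted p = 0.897, 1 mouse in the RD tumour group) and -1.58 ± 1.04 for WD minus RD no tumour (adjusted p = 1).

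Timd4 was 261, 79.1 and 302 CPM in the macrophage-excess nuclei of the WD mice, 15.9 and 311 CPM in those of the RD tumour mice, and 153, 314 and 155 CPM in those of the RD no tumour mice. WD mouse 2 was again the lowest of its group. Folr2 was also lowest in WD mouse 2 within that group. It was 64.3, 12.8 and 57.8 CPM in the macrophage-excess nuclei of WD mice 1 to 3, 32.6 CPM in RD tumour mouse 2, and 23.5, 70.2 and 21.1 CPM in the RD no tumour mice. Id3 was 87.9, 108 and 141 CPM in the WD mice and 193, 170 and 84.5 CPM in the RD no tumour mice. In RD tumour mouse 2 it was 216 CPM, 1.03 times the level in the remaining nuclei of that liver.

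**Figure D2:**
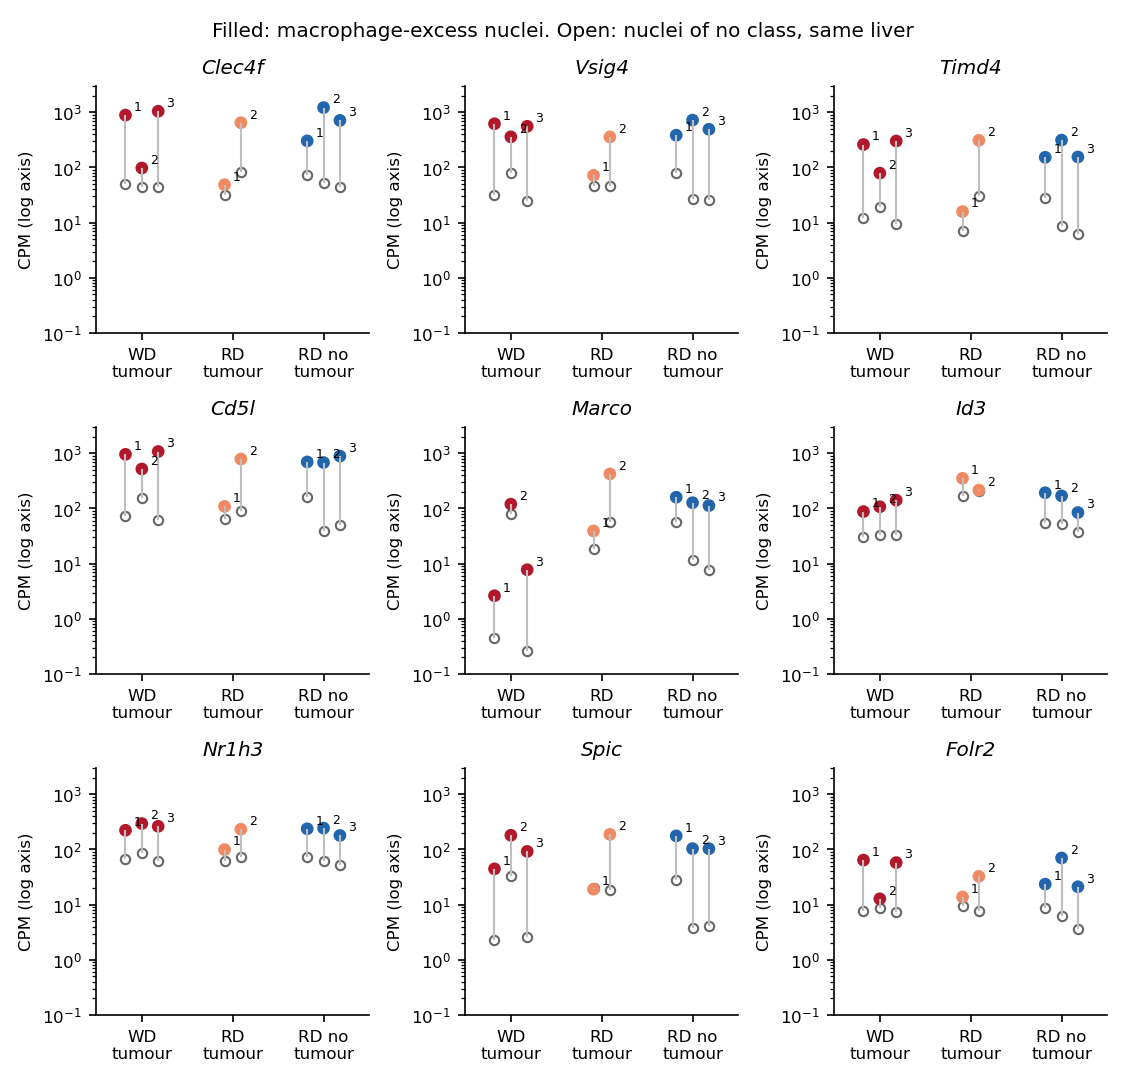
Level of each gene in macrophage-excess nuclei (filled points, numbered by replicate) and in the nuclei of no class of the same liver (open points), in CPM on a log axis. Clec4f stands 15.9 to 23.2 times above the remaining nuclei in 4 livers, and the filled and open points lie close together in RD tumour mouse 1.

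The fold change of Marco in macrophage-excess nuclei depended on WD mouse 2. With all mice but RD tumour mouse 1 it did not pass (above). Without WD mouse 2 as well it was -4.59 ± 0.43 for WD minus RD no tumour and -6.16 ± 0.47 for WD minus RD tumour (log2, edgeR adjusted p = 0.0777 and 0.0944). Without all 3 libraries with macrophage RNA in many nuclei it was -4.42 ± 0.41 and -6.14 ± 0.44 (edgeR adjusted p = 0.0383 and 0.0472), with 2 WD mice, 2 RD no tumour mice and a single RD tumour mouse that is assumed to vary like the others. In that last fit 0%, 0.0729% and 0.0081% of 12346 genes were called for RD tumour minus RD no tumour, WD minus RD no tumour and WD minus RD tumour, and 4.46%, 6.23% and 7.56% had an unadjusted p under 0.05. These libraries were left out after the data had been seen. Leaving out WD mouse 2 removes the 1 WD mouse with more than a few Marco UMIs, so these p-values are no test of the groups.

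In macrophage-excess nuclei without RD tumour mouse 1 and RD no tumour mouse 1, edgeR called 3 genes lower in WD than in RD no tumour mice. In the macrophage-marker nuclei 0 of 14974 genes passed with edgeR in each comparison (0% called), with 1249, 370 and 1375 genes at an unadjusted p under 0.05 (8.34%, 2.47% and 9.18%) and 63, 13 and 70 called by DESeq2. In the macrophage-excess nuclei without RD tumour mouse 1, 0 of 12874 passed, 442, 471 and 696 had an unadjusted p under 0.05 (3.43%, 3.66% and 5.41%), and DESeq2 called 2, 13 and 7. The median log2 fold change of the 9 members for WD minus RD no tumour was -0.12 in that class, beside -0.04 over all genes tested. All 9 overlapped between these 2 groups, where 9.40% of genes did not. In the macrophage-marker nuclei, Vsig4 and Cd5l had fold changes of -1.73 ± 0.58 and -1.41 ± 0.61 for RD tumour minus RD no tumour (log2, edgeR adjusted p = 0.588 for both). Without RD tumour mouse 2, which leaves mouse 1 alone in its group, they were -2.68 (adjusted p = 0.0314) and -2.67 (adjusted p = 0.0253), the lone mouse being assumed to vary like the others. With macrophage-excess nuclei and without RD tumour mouse 1 they were -0.70 and -0.06. Id3 gave 1.04 ± 0.38, -0.54 ± 0.35 and -1.58 ± 0.38 in macrophage-marker nuclei for the 3 comparisons in the order above (adjusted p = 0.588, 1 and 0.527). Marco gave -1.24 ± 1.26 for WD minus RD no tumour and -1.16 ± 1.37 for WD minus RD tumour there (adjusted p = 1 and 0.725). The latter turned to 0.75 without RD tumour mouse 2 and was -4.93 without WD mouse 2.

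Over all nuclei of a liver, Timd4 was found together with Clec4f more often than independent detection would give. Nuclei with a Clec4f UMI numbered 656 to 1604 per liver. Among them the share with a Timd4 UMI was 19.8%, 19.1% and 21.8% in the WD mice, 2.20% and 21.9% in the RD tumour mice, and 32.1%, 30.5% and 22% in the RD no tumour mice. Exact binomial 95% intervals, which cover counting error only, were 16.9% to 22.8%, 16.1% to 22.3% and 19.2% to 24.5%, then 1.39% to 3.32% and 19.9% to 24.0%, then 29.5% to 34.8%, 27.7% to 33.5% and 19.5% to 24.7%. Every liver without tumour was above every liver with tumour, although the closest 2, RD no tumour mouse 3 and RD tumour mouse 2, differed by less than their intervals.

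The share of Timd4 in nuclei without Clec4f was 0.844% to 3.93% (median depth 1063 to 2562 UMIs, against 1614 to 2943 UMIs in Clec4f nuclei). The number of nuclei with both genes was 3.26 to 7.67 times the number expected from independence in 7 livers. In RD tumour mouse 1 it was 1.77 times, and its 2.20% lay near the 1.19% of its nuclei without Clec4f. This expectation covers nuclei of all cell types, so genes that share a cell type exceed it. Vsig4 with Clec4f gave 1.41 to 5.70 times over the 8 livers. Within macrophage-excess nuclei, Timd4 with Clec4f gave 1.44 to 3.92 times.

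Averaged over mice, the Timd4 share was 16.9% in the 5 livers with tumour and 28.2% in the 3 without, a difference of -11.3 percentage points. A two-sided exact permutation test gave p = 0.0357, the smallest that 5 against 3 mice allow, and p = 0.143 after Benjamini-Hochberg adjustment over 4 such tests. The difference therefore did not pass. It was -7.59 points without RD tumour mouse 1 (exact permutation p = 0.0571, the smallest for 4 against 3) and -9.86 points without WD mouse 2 and RD no tumour mouse 1 (exact permutation p = 0.133). The mitochondrial share differed between mice, with a median of 7.91% and 7.51% in WD mice 1 and 3 and at most 3.28% in the other 6, WD mouse 2 among them. When only nuclei with at most 5% mitochondrial UMIs were used, the shares of WD mice 1 and 3 were 35.7% and 33.6%, and the difference was -7.40 points (exact permutation p = 0.429). With every nucleus thinned to 1000 UMIs the shares were 11.9%, 15.5% and 20.7%, then 1.43% and 12.8%, then 19.2%, 23.8% and 14.9%, and the difference was -6.80 points (exact permutation p = 0.179). Shallower nuclei were left out there, with 4241 to 14179 kept per library.

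By diet the groups overlapped. The share was 20.2% in the 3 WD mice and 21.7% in the 5 RD mice, a difference of -1.55 points (two-sided exact permutation p = 0.75, adjusted p = 0.786), and its sign changed in 7 of the alternatives. Without RD tumour mouse 1 it was -6.43 points (exact permutation p = 0.0571, adjusted p = 0.114), with the WD mice at 19.1% to 21.8% below the other RD mice at 21.9% to 32.1%. Tumour status gave the same p in that setting, because both reached the smallest value that groups of 4 and 3 mice allow. All 3 WD mice bore tumours, so diet and tumour status cannot be fully told apart.

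Among macrophage-excess nuclei with Clec4f, the share with Timd4 was higher in every liver. It was 59.3%, 50% and 53.2% in the WD mice, 18.2% (6 of 33 nuclei) and 51.6% in the RD tumour mice, and 53.2%, 65.3% and 44.5% in the RD no tumour mice. The groups overlapped. The difference between livers with and without tumour was -7.93 points (two-sided exact permutation p = 0.536, adjusted p = 0.857). Their nuclei without Clec4f held Timd4 in 4.45% to 18.1% of cases.

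**Figure D3:**
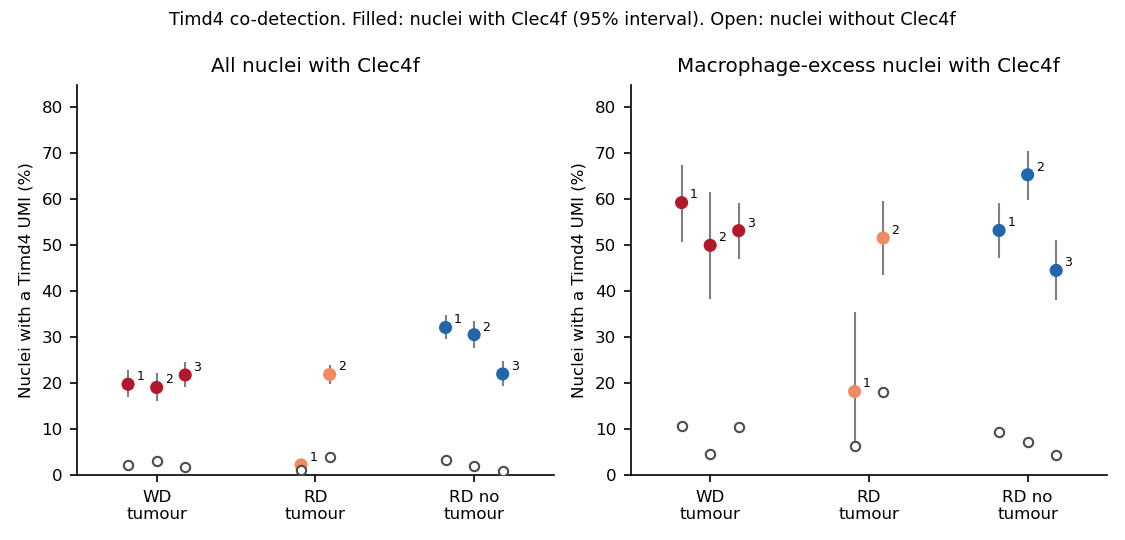
Percentage of nuclei with a Timd4 UMI among nuclei with Clec4f (filled, with exact 95% binomial intervals) and without Clec4f (open), 1 point per mouse, for all nuclei (left) and for macrophage-excess nuclei (right). In all nuclei the 3 livers without tumour lie at 22% to 32.1% and the 5 with tumour at 2.20% to 21.9%; in macrophage-excess nuclei the groups overlap.

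The share of macrophage-marker nuclei was not shown to differ between groups. It was 36.0% on average in livers with tumour and 20.2% in those without (difference 15.8 points, two-sided exact permutation p = 0.643, adjusted p = 0.786), a mean set largely by the 91.8% of RD tumour mouse 1. Counted as macrophage-excess nuclei, the means were 3.65% and 6.91%, a difference of -3.26 points (exact permutation p = 0.107, adjusted p = 0.429). RD tumour mouse 1, at 0.880%, was lowest by this count. The excess is set against each library's own rate, so a library with more macrophage RNA has a higher bar. This share therefore cannot compare the number of macrophages between livers.

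Within the Clec4f nuclei of the macrophage-marker class, those with Timd4 were compared with those without, mouse by mouse. Gpnmb, a glycoprotein of lipid-laden macrophages, was the largest difference: it fell in the Timd4-positive nuclei, by 1.54 ± 0.24 on the log2 scale (edgeR with mouse as a block, adjusted p = 0.0049). Its level was lower in 7 of 8 mice. The 7 include RD tumour mouse 1, whose value with Timd4 rests on 22 nuclei. In that library Timd4 was found in 2.20% of nuclei with Clec4f and 1.19% of those without, so its value adds little. The counts of mice below include it too. In WD mice 1 to 3 it was 49.0, 11.9 and 32.5 CPM with Timd4 and 93.4, 10.6 and 100.2 CPM without. In the RD tumour mice it was 0 (no UMI in 22 nuclei) and 11.8 CPM with Timd4, and 33.1 and 44.5 CPM without. In the RD no tumour mice it was 1.01, 3.00 and 2.96 CPM with, and 9.88, 23.3 and 6.57 CPM without. Their values with Timd4 come from 373, 263 and 143 nuclei and rest on few Gpnmb UMIs. Only WD mouse 2 showed no lower value. Spp1, which encodes osteopontin and is also made by lipid-associated macrophages, fell by 0.85 ± 0.17 (adjusted p = 0.0357, lower in 7 of 8 mice).

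In all, 10 genes were higher and 4 lower of 10317 tested, or 0.0969% and 0.0388%. Beside Gpnmb and Spp1, the lower genes were Mbp, myelin basic protein (-0.82, adjusted p = 0.0484, lower in 8 of 8 mice), and Gm19951 (-0.73, adjusted p = 0.0484). The 5 with the largest rise were Il1a, the cytokine interleukin 1 alpha (1.04 ± 0.19, adjusted p = 0.0222), Pde1c, a cyclic nucleotide phosphodiesterase (0.99 ± 0.19, adjusted p = 0.0355), Ccbe1, a secreted matrix protein (0.96, adjusted p = 0.0355), Gm15674 (0.96, adjusted p = 0.0355) and D130040H23Rik (0.96, adjusted p = 0.0049). Il1a was higher with Timd4 in 7 of 8 mice, and Pde1c and Ccbe1 in 8 of 8. Of the genes named here, Gpnmb and D130040H23Rik kept their call when any mouse other than WD mouse 3 was left out; without WD mouse 3 no gene was called, and both had adjusted p = 0.0508. Over all Clec4f nuclei, whatever their class, Gpnmb was -0.28 (adjusted p = 0.523). Also called were Cd55, a regulator of complement (0.81, adjusted p = 0.0484), and Il15, a cytokine that sustains lymphocytes (0.64, adjusted p = 0.0355).

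The other members tested in this contrast were not called in the macrophage-marker nuclei. Of 7, all 7 had a fold change above 0, with a median of 0.37 beside -0.01 over all genes, and 5 of 7 had an unadjusted p under 0.05, which 8.08% of all genes had. Marco was 0.61 ± 0.16 (adjusted p = 0.218), Id3 0.42 ± 0.12 (adjusted p = 0.279) and higher in 8 of 8 mice, Spic 0.38 ± 0.14, Cd5l 0.37 ± 0.14 and Vsig4 0.36 ± 0.14 (adjusted p = 0.475, 0.524 and 0.521). Marco passed in nuclei thinned to 1000 UMIs (0.91, adjusted p = 0.0395), without RD tumour mouse 2 (0.76, adjusted p = 0.0492) and over all Clec4f nuclei (0.73, adjusted p = 0.0230). Over all Clec4f nuclei Spic (1.18), Vsig4 (1.10), Cd5l (1.05) and Id3 (0.57) passed too (edgeR adjusted p = 0.0012, 0.0018, 0.0024 and 0.0046), where 1637 genes were called. In macrophage-excess nuclei, with 7 mice, the median of these 7 members was 0.03, none had an unadjusted p under 0.05, and Vsig4 was -0.06.

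Timd4-positive nuclei were deeper in every mouse, with a median of 2218 to 4724 UMIs against 1637 to 2720 UMIs, and in 7 of 8 mice held a lower share of UMIs of 10 hepatocyte genes (1.57% to 3.70% over the 8 mice, against 2.25% to 3.11%). The part of these in the contrast was not tested beyond the thinned counts. At 1000 UMIs per nucleus 2 genes were higher and 5 lower of 1919. Of the 14 genes called, 10 could be tested in macrophage-excess nuclei; all 10 kept their sign, but only Gm19951 passed there (-0.70, adjusted p = 0.0014). Gpnmb, too low for that test, had 85 UMIs with Timd4 and 109 without and was lower in 6 of 7 mice. That comparison called 263 genes higher and 233 lower of 6356 (4.14% and 3.67%, together 7.8%), with Ang4 (1.498) and Cobll1 (1.29) among those higher and 4931431B13Rik (-1.16) among those lower. Of 10 hepatocyte genes 6 were called lower there and 1 higher, and 9 of the 17 general macrophage genes, on which the class rests, were lower.

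**Figure D4:**
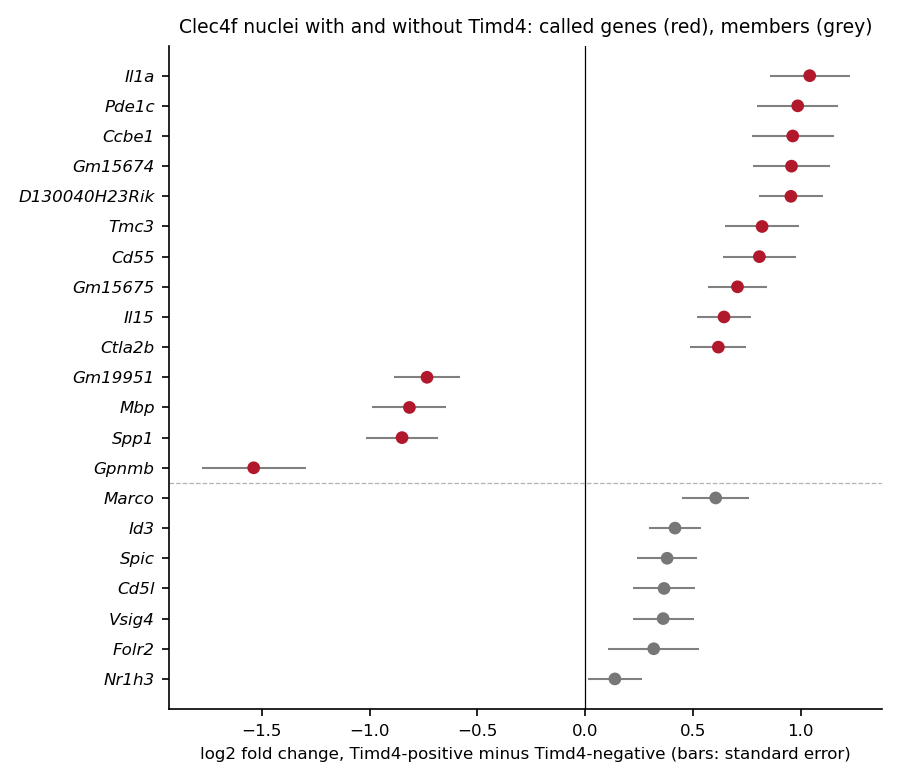
Fold change (log2, with its standard error) between Timd4-positive and Timd4-negative Clec4f nuclei of the macrophage-marker class, over 8 mice, for the 14 called genes (red) and 7 members (grey). Gpnmb lies farthest from 0 at -1.54, and all 7 members lie between 0.14 and 0.61 without passing the adjusted threshold.

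Other genes known from Kupffer cells were measured as a list of 14 (Cd163, Clec1b, Cd207, Kcna2, Adrb1, Il18bp, Slc40a1, Hmox1, C6, Cdh5, Fcna, Xlr, Slc16a9 and Tfec). In macrophage-excess nuclei without RD tumour mouse 1, none of 14 was called for WD minus RD no tumour, 10 had a fold change below 0, and the median was -0.17. The 3 with the largest changes were Xlr (2.14 ± 0.90), the lectin Cd207 (1.63 ± 0.64) and Cd163, the haemoglobin-haptoglobin receptor (-1.46 ± 0.41), each with adjusted p = 1. Cd163 was 43.3, 20.9 and 46.6 CPM in the WD mice and 55.7, 121.7 and 110.5 CPM in the RD no tumour mice. It was 86.5 CPM in RD tumour mouse 2. Cd207 went the other way, at 51.1 to 163 CPM in the WD mice and 8.13 to 41.6 CPM in the RD no tumour mice. Of the 14 genes, 1 was higher and 1 lower in WD mice without overlap, where 9.40% of all genes did not overlap. Slc40a1, the iron exporter ferroportin, was abundant in both groups, at 962, 273 and 1188 CPM and 563, 1217 and 775 CPM.

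Genes of lipid-associated macrophages had the largest median difference of the 5 gene lists between these groups. For WD minus RD no tumour in macrophage-excess nuclei, all 11 listed genes had a fold change above 0, with a median of 1.33 (-0.04 over all genes). None passed the adjusted threshold. At an unadjusted p under 0.05 there were 8 of 11, where 3.66% of all genes had one, and 5 of 11 did not overlap between groups, where 9.40% of genes did not. The list was chosen with earlier results of these data known, so these shares describe it and are no test of it. Gpnmb was 152, 11.2 and 274 CPM in the WD mice and 6.28, 11.2 and 13.003 CPM in the RD no tumour mice (3.79 ± 1.03, adjusted p = 1). Mmp12, a macrophage elastase, was 135, 21.9 and 244 CPM against 8.63, 11.8 and 10.6 CPM (3.62 ± 0.81, adjusted p = 1), and Atp6v0d2, a proton pump subunit, gave 2.51 ± 0.81. Trem2, the lipid-sensing receptor that marks these cells, was 40.6, 39.8 and 58.7 CPM in the WD mice, 2.51 CPM in RD tumour mouse 2 and 19.2, 16.8 and 8.94 CPM in the RD no tumour mice. Lpl, lipoprotein lipase, was 161, 151 and 387 CPM, then 26.3 CPM, then 29.0, 59.0 and 105.6 CPM. For both, the WD mice were above all 4 reversed mice. RD tumour mouse 1, left out because its class was not separated, had the highest Capg, Cd9 and Cd63 of all 8 livers, at 328, 237 and 146 CPM. WD mouse 2 had little Gpnmb although its Lpl and Trem2 were at the level of WD mouse 1. Without WD mouse 2 and RD no tumour mouse 1 as well, the median of the 11 genes was 1.65, and 9 of 11 had an unadjusted p under 0.05, where 6.23% of all genes had one. These mice were left out after the data had been seen, so this too is a description.

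**Figure D5:**
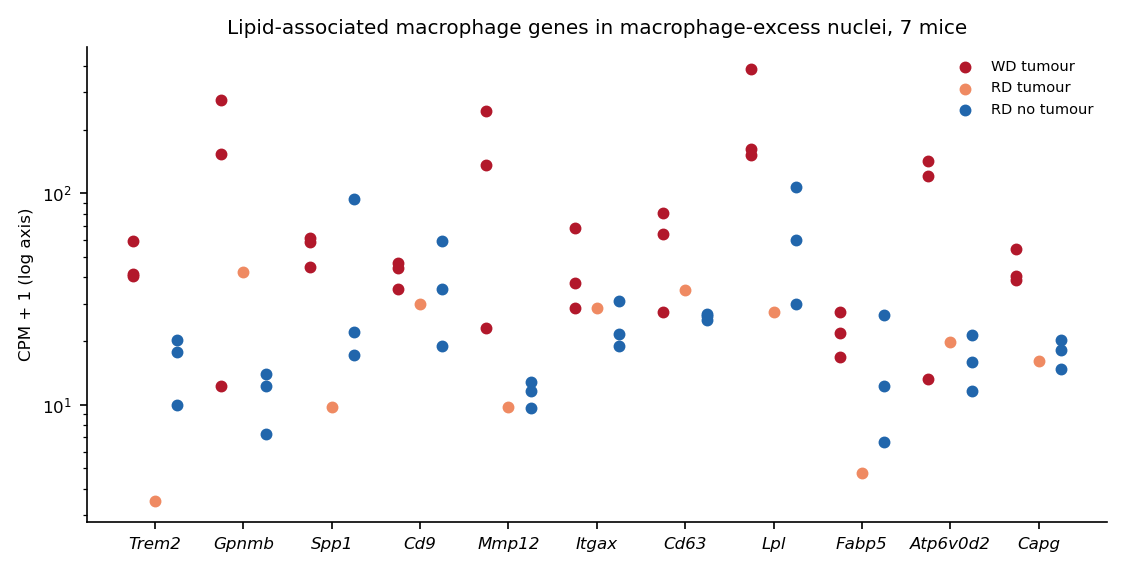
Level of 11 lipid-associated macrophage genes in macrophage-excess nuclei (CPM + 1, log axis), 1 point per mouse in the 3 groups, without RD tumour mouse 1. For Trem2, Mmp12, Cd63, Lpl and Capg the 3 WD mice lie above the 3 RD no tumour mice; Gpnmb is high in 2 of the 3 WD mice.

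The remaining lists were closer to all genes in the same comparison. The 10 genes of monocyte-derived cells had a median of -0.27, with 3 above 0 and none called. The 6 genes tied to the LXR receptor, of which Nr1h3 is a form, had a median of 0.29 with 4 above 0 and none called. They were led by Srebf1, the lipogenic factor (0.97 ± 0.51). Of 13 niche signals and receptors, 12 were tested, with a median of 0.05 and none called. The largest change was that of Rbpj, the Notch effector (0.85 ± 0.20, edgeR adjusted p = 1).

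Over 53 sums of nuclei (each mouse and class), the 5 genes outside the members whose level followed Clec4f most closely were Kcna2 (Pearson r = 0.883 of log2(CPM + 10)), Kcnj16 (0.877), Mmp27 (0.865), Gm32098 (0.847) and Folr1 (0.847). Among the members r was 0.891 for Timd4, 0.839 for Vsig4, 0.826 for Cd5l, 0.752 for Nr1h3, 0.685 for Folr2, 0.623 for Spic, 0.391 for Id3 and 0.153 for Marco. Sums of 1 mouse share a library, so these are descriptions with no test.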

How the data were processed

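Per the labels' protocols, nuclei of snap-frozen liver were sequenced as 3' version 3.1 droplet libraries; per the submitters' processing notes, the authors used Cell Ranger 7.0.0 with build mm10. Their annotation and intron setting are not given in the sources used here. The authors' deposited values are raw UMI counts per gene and barcode, unnormalised. Barcodes with at least 300 detected genes were kept as nuclei. No doublets were removed in the main values; Scrublet calls (scanpy 1.11.5) served as an alternative. CPM is UMIs per 1000000 UMIs of the summed nuclei. Counts were summed per mouse and tested with edgeR 4.0.16 (quasi-likelihood, all 3 groups in 1 fit, Benjamini-Hochberg over all genes tested); DESeq2 1.42.0 was an alternative. Genes of the class marker lists were not used as members. A mouse is the replicate; nuclei are not. Shares were compared by exact permutation over mice. The Timd4 contrast used mice with at least 10 nuclei in each class, with mouse as a block. A floor for a count of 0 is 3 counts.

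Named genes are all 9 members, in each list the 3 largest fold changes of the contrast described, the 5 genes most like Clec4f, and up to 5 called genes each way in the Timd4 contrast; Cd55, Il15, Trem2, Lpl, Slc40a1 and the library-specific remarks were chosen after their values were seen. The members and lists were chosen with earlier results of these data known. On simulated data with known changes, the whole-library test recovered 34%, 52% and 27% of 4-fold changes and 96%, 100% and 92% of 16-fold changes for RD tumour minus RD no tumour, WD minus RD no tumour and WD minus RD tumour. Apart from the known changes, the simulation gave all mice 1 average profile, and each gene the spread typical of its level. Genes that vary more between mice, such as Marco, may be missed more often than these shares say. Coordinates are from GENCODE M21 (32158 of 32285 IDs matched), promoters from RefSeq, both on GRCm38. The labels name no batch.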

Additional observations from a re-analysis of the deposited data

How the results depend on the processing

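The number of genes called depended on the tool and on single mice. In whole libraries DESeq2 called 67, 36 and 109 genes for RD tumour minus RD no tumour, WD minus RD no tumour and WD minus RD tumour, and in macrophage-marker nuclei 63, 13 and 70, where edgeR called 0. Leaving out each mouse gave 0 to 4569, 0 to 0 and 0 to 4438 genes in whole libraries and 0 to 3539, 0 to 0 and 0 to 3601 in macrophage-marker nuclei. The highest counts came without RD tumour mouse 2, which leaves mouse 1 alone, assumed to vary like the others; Id3 then passed at 1.34 and -1.95 (edgeR adjusted p = 0.0179 and 0.0105) against the RD no tumour and WD mice. Without RD tumour mouse 1, 11 genes were called in whole libraries for RD tumour minus RD no tumour. The fold changes of Marco that turned were 0.15, 0.15 and 0.49 (WD minus RD no tumour, whole library), 0.51 and 0.75 (WD minus RD tumour, whole library and macrophage-marker nuclei). Without WD mouse 2 these 3 were -5.84, -6.15 and -4.93.

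In the Timd4 contrast 14 genes were called, and 7 with DESeq2, 52 with no filter on low counts, 1637 over all Clec4f nuclei, 2 without called doublets, 7 after thinning, 496 in macrophage-excess nuclei and 0 to 103 when each mouse was left out (0 without WD mouse 3, 2 without RD no tumour mouse 1, 103 without RD tumour mouse 1). Vsig4 turned to -0.061 in macrophage-excess nuclei and Ccbe1 to -0.26 over all Clec4f nuclei. The cause was not tested.

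For the Timd4 share, WD minus RD turned to 1.61 points without WD mouse 2 and RD no tumour mouse 1, 7.47 with at most 5% mitochondrial UMIs, 3.46 in macrophage-marker nuclei, 7.58 in macrophage-excess nuclei and 1.65 after thinning, and ran from -6.43 to 1.04 when each mouse was left out, with 1.04 and 0.65 without RD no tumour mice 1 and 2. The difference between livers with and without tumour ran from -14.4 to -7.59 points when each mouse was left out, and from -14.4 to -6.80 points over all alternatives. It was -10.2 points with at least 500 genes per barcode and -13.1 points in macrophage-marker nuclei (exact permutation p = 0.107 and 0.357). The macrophage-marker share ran from 1.87 to 24.2 points (tumour minus none) and from -24.0 to 7.72 points (WD minus RD, with 1.66, 1.28 and 7.72 without WD mouse 1, WD mouse 3 and RD tumour mouse 1), and the first turned to -3.26 points in macrophage-excess nuclei. The cause was not tested.

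Mice with the same replicate number did not deviate together (correlations from -0.53 to 0.44 over 7 pairs), so the numbers were not taken to pair them. With the replicate number as a block, edgeR called 0 genes in each comparison, and 339, 363 and 462 genes had an unadjusted p under 0.05 in whole libraries. With 2 or 3 mice per group, many 4-fold changes were missed on simulated data; smaller ones were not simulated.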
